A study of Mus musculus with 9 samples.

Results

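Glutamate receptors and their auxiliary subunits were described in striatum of Ebf1 mutant mouse embryos. Ebf1 is a transcription factor of direct-pathway striatal projection neurons. The set held 34 genes, taken by symbol from the gene list of the count files through the GENCODE M21 annotation, out of 44886 genes counted. It comprised 4 AMPA, 7 NMDA and 5 kainate receptor subunits, the delta receptor Grid1, 7 metabotropic receptors, 6 transmembrane AMPA receptor regulatory proteins (TARPs, the Cacng genes), the 2 Neto proteins and 2 cornichons.

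Per the methods, RNA of dissected striatum was sequenced from 9 embryos at E17.5, 3 per genotype, each from a separate brain. Islet1Cre;Ebf1fl/- embryos (Islet1Cre mutants below) carried 1 floxed and 1 null Ebf1 allele and a Cre that the study places in striatal projection neurons (SPN) of the direct pathway (dSPN) and in cholinergic interneurons. Dlx5/6::Cre;Ebf1fl/- embryos (Dlx5/6::Cre mutants below) carried the same Ebf1 alleles and a Cre active in all SPN and in interneurons. Control embryos came from the same crosses, of Ebf1+/- males carrying either Cre with Ebf1fl/fl females. Every embryo therefore inherited a floxed Ebf1 allele from its dam, and the methods describe the controls as heterozygous without giving the genotype of each. The labels give a C57BL/6 background throughout, whereas the methods keep the Islet1Cre line on a B6D2F1/J background. Whole striatum also held cells in which neither Cre acts, so that each value is a sum over mutant and other cells.

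AMPA, NMDA and kainate receptors are ion channels built of 4 subunits, and they carry fast excitation from cortex and thalamus onto SPN. Metabotropic glutamate receptors signal through G proteins and set transmitter release and the excitability of the neuron that carries them. TARPs and cornichons accompany AMPA receptors, and Neto proteins accompany kainate receptors, to the membrane and alter their gating.

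Depth ranged from 16548083 counts (Islet1Cre mutant 3) to 41507049 (Islet1Cre mutant 2). Ebf1 itself was not lower in the mutants: normalized counts were 7945 to 14208 in controls, 13210 to 15343 in Islet1Cre mutants (log2 fold change 0.41, adjusted p = 0.599) and 11774 to 15312 in Dlx5/6::Cre mutants (0.33, adjusted p = 0.399). Counts per gene do not resolve the part of Ebf1 that Cre removes, so this does not check the labels. By immunostaining, the study found no Ebf1 protein in the striatum of either mutant at E17.5. Control 3 and Islet1Cre mutant 3 held counts of both Xist (12552 and 4062) and the Y-linked gene Kdm5d (107 and 381), whereas the other libraries held one of the pair at 4 counts or fewer. Among those, Control 2 held Kdm5d (1335 counts), and Control 1, Islet1Cre mutants 1 and 2 and every Dlx5/6::Cre mutant held Xist. Sex as read from this pair was thus uneven between the groups, and its part in the values was not tested. For Control 3 and Islet1Cre mutant 3 the pair gave no single sex. Whether these libraries held RNA of more than 1 embryo was not tested, and each is counted as 1 embryo below. Dlx5/6::Cre mutant 1 stood apart in the summed level of dividing progenitor markers, at 71.8 against 18.6 to 25.8 in the other 8 libraries, and of cortical excitatory neuron markers, at 63.9 against 10.8 to 31.7. These sums are in counts per kb of exon scaled to a common total as in RPKM values, the scale called level below. SPN markers were present in every library, with sums of 385 to 459 in controls, 443 to 452 in Islet1Cre mutants and 367 to 443 in Dlx5/6::Cre mutants. The sums of dSPN markers were 126 to 169, 122 to 145 and 86.7 to 106. Sums of interneuron markers were 382 to 457, 318 to 438 and 207 to 349. Most of each sum was Npy and Sst, at mean levels of 212 and 162 in controls, so it says little of the other interneuron markers. Fewer cells of a type and less RNA per cell cannot be told apart in such samples.

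Mean levels in the controls ran from 325 down to 0.0187 among the genes with any count. Of the 34 genes, 13 had a mean level over 10, 14 lay between 1 and 10, and 7 were below 1. The last group includes Cacng7 and Cacng8, listed at 0 and given no level for the reason stated below. The cornichon Cnih2 was the highest at 325 ± 13.6 (SD, n = 3), followed by the TARP Cacng4 at 115 ± 5.64, the kainate subunit Grik5 at 59.5 ± 7.69 and the AMPA subunit Gria1 at 35.6 ± 1.32. The range over the controls of each of these 4 lay wholly above that of the next gene. Gria2 (23.4 ± 0.69), Neto1 (21.6 ± 2.98), Grm5 (17.8 ± 4.06) and Grik3 (16.5 ± 1.00) came next, and the ranges of neighbours among Gria2, Neto1, Grm5 and Grik3 overlapped, although Neto1 was above Grm5 within each control. Length was the union of annotated exons, and with the longest transcript in its place Gria2 stood at 35.0 beside 38.8 for Gria1, and Grin1 at 24.2 in place of 10.7.

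The lower end of the order held genes with few counts. Grm8 (0.159 ± 0.020), Grin2a (0.0962 ± 0.018), Grin3b (0.0771 ± 0.027) and Grm6 (0.0187 ± 0.018) were the lowest with any count. Grin3b and Grm6 had a mean under 10 counts per library and did not pass the filter on low counts. Cacng7 and Cacng8 were listed at 0 in all 9 libraries. Both lie in a run of 8 consecutive protein-coding genes, chr7:3154658-3502624 (GRCm38), in which no gene had more than 10 counts in any library and 6 were listed at 0 in all, whereas the nearby respiratory chain gene Ndufa3 had 1073 to 2709 counts. No level of Cacng7 or Cacng8 is therefore given. The remaining 30 genes entered the test of all 16368 genes, and counts below refer to these 30.

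**Figure D1:**
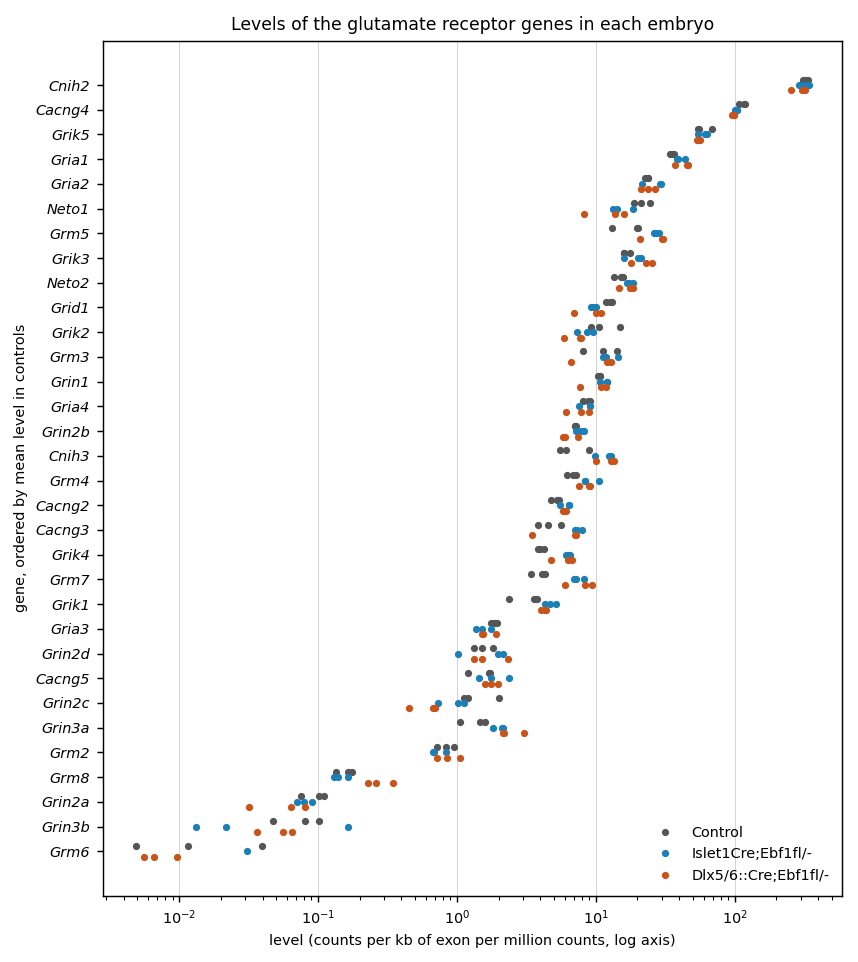
Level of 32 glutamate receptor and auxiliary genes (rows, ordered by mean level in controls) in each of the 9 embryos, on a log axis of counts per kb of exon scaled as in RPKM values. Each point is 1 embryo, coloured by genotype, and embryos with 0 counts (Grm6) are not drawn. Cnih2 and Cacng4 lead in every embryo, and the spread between embryos is small beside the range between genes.

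The comparison of each mutant with the controls asked whether Ebf1 deletion by either Cre altered the glutamate receptor repertoire. The study reports no Ebf1 expression in striatal interneurons and only scarce expression in indirect-pathway SPN. In Islet1Cre mutants 2 of the 30 genes rose, the kainate subunit Grik4 and the metabotropic receptor Grm7, and none fell (edgeR's quasi-likelihood test, adjusted p under 0.05 over all genes). Of the genes with lower counts 4 were at an unadjusted p under 0.05 (Grin2c, Grik2, Grid1 and Neto1), and DESeq2 called none of them. Over all genes tested, 0.971% passed this threshold, 0.47% upward and 0.501% downward. In Dlx5/6::Cre mutants 3 genes rose, Grik4, Grm7 and the NMDA subunit Grin3a, and 1 fell, the NMDA subunit Grin2c. Over all genes, 2.39% passed in that comparison, 1.05% upward and 1.34% downward. Both comparisons use the same 3 controls, so their values are given side by side and are not independent. Each edgeR p-value of this fit sets a difference of means against the spread between embryos, estimated over all 3 groups together.

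With the genes past the threshold included, a larger share of these genes had a small unadjusted p than of genes at large. An unadjusted p under 0.05 was found for 14 of 30 in Islet1Cre mutants, where 7.93% of all genes reached it, and for 16 of 30 in Dlx5/6::Cre mutants, where 15.5% did. All 3 Islet1Cre mutants lay above all controls for 12 genes and below for 4, against 7.83% and 7.28% of all genes. All 3 Dlx5/6::Cre mutants lay above all controls for 10 genes and below for 5, against 9.63% and 11.3%. The median log2 fold change of the 30 was 0.128 in Islet1Cre mutants and 0.116 in Dlx5/6::Cre mutants, beside -0.002 and 0.011 over all genes. All 6 mutant embryos lay above all controls for 7 genes (Grm7, Grm5, Grm4, Grik4, Grik1, Grin3a and Cnih3), where 3.63% of all genes did so. They lay below for 3 (Grin2c, Grid1 and Neto1), where 4.08% did. The set was chosen with earlier results of these data known, so these shares describe it and do not test it against all genes.

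**Figure D2:**
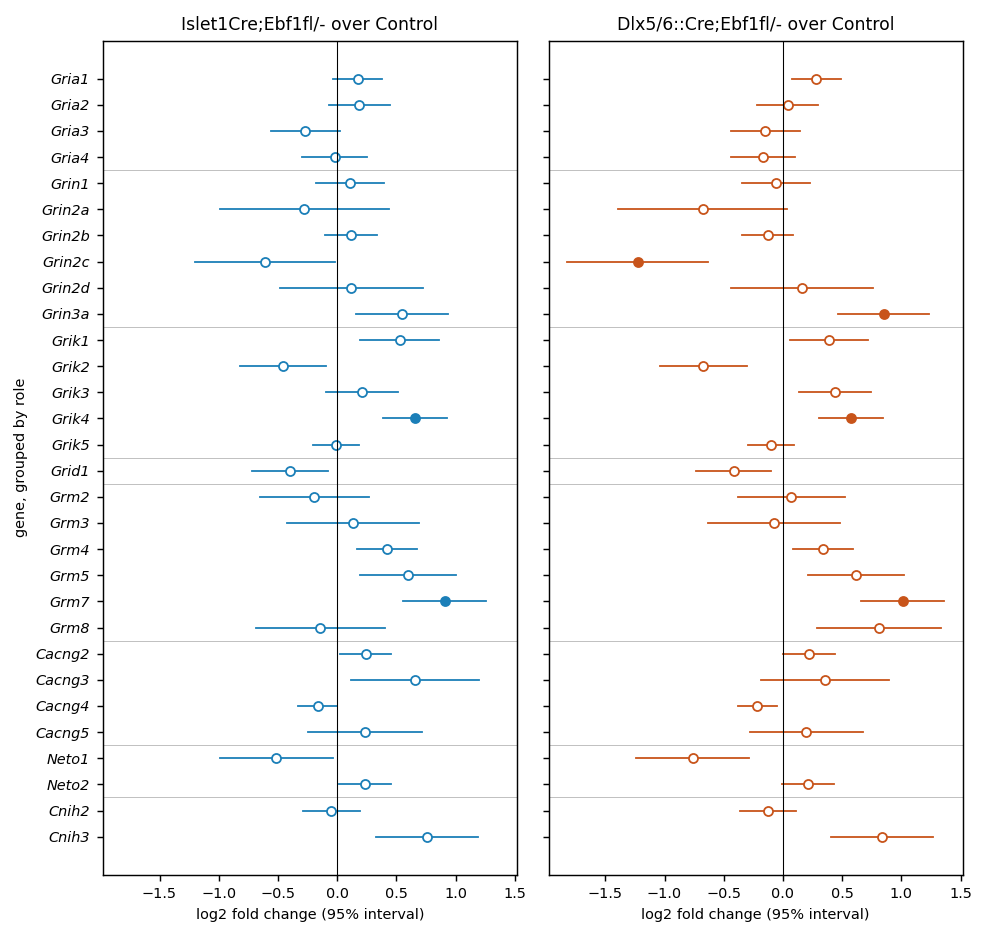
Log2 fold change over Control with its 95% interval for the 30 tested genes, grouped by role, in Islet1Cre mutants (left) and Dlx5/6::Cre mutants (right). Filled points are past an adjusted p of 0.05, namely Grik4 and Grm7 on the left and Grin2c, Grin3a, Grik4 and Grm7 on the right.

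The Grm7 promoter is shown because Grm7 had the smallest adjusted p of the set in both mutants and was the only gene of the set whose annotated promoter held the Ebf motif. Grm7 spans chr6:110645581-111567230 on the + strand of GRCm38. The 250 bases before its first RefSeq start are chr6:110645262-110645511 (GRCm38.p6, + strand), with the motif in capitals, its first base 194 bases before the start:
Grm7: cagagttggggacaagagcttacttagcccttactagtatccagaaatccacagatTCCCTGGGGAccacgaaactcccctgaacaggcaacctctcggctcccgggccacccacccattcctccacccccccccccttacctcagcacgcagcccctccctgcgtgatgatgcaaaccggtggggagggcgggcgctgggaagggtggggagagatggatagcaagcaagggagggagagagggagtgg

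The motif searched was TCCC, any 2 bases, then GGGA, which reads the same on both strands apart from the free bases, in the 300 bases from 250 before to 50 after each RefSeq start. It was found in 1 of 28 promoters of the 23 genes of the set with an entry, beside 0.904% of all 32851 promoters and 1.06% of 27025 genes. A second RefSeq start of Grm7 lies downstream, and its window did not reach the motif. For comparison, the 250 bases before the RefSeq start are shown for Grik4 (chr9:42944372-42944621, - strand), which rose in both mutants. They are also shown for Grin2c (chr11:115267244-115267493, - strand), which fell in Dlx5/6::Cre mutants. The Grik4 window lies partly within the GENCODE span of Grik4 (chr9:42518135-42944493), whose start is further upstream. Neither stretch held such letters:
Grik4: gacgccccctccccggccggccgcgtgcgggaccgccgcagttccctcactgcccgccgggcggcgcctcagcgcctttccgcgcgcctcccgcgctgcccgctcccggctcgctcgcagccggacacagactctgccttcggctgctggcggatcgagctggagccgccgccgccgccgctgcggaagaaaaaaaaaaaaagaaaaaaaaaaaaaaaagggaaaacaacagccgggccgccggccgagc
Grin2c: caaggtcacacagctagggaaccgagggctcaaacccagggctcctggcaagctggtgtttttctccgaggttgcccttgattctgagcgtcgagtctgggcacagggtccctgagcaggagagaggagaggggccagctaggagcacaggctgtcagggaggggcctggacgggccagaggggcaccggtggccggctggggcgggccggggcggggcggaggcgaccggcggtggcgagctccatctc

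These are descriptions of letters in a window, and no binding was measured in these files. Grin3a had no entry in the promoter table.

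Grm7 encodes mGluR7, a presynaptic receptor coupled to inhibitory G proteins. Its normalized counts, which are counts divided by a size factor per library, were 599, 742 and 772 in the controls. They were 1276, 1439 and 1256 in Islet1Cre mutants and 1061, 1656 and 1537 in Dlx5/6::Cre mutants. All 6 mutant embryos were above all controls, and Control 1 and Dlx5/6::Cre mutant 1 were the lowest of their groups. The log2 fold change was 0.91 ± 0.16 (SE) in Islet1Cre mutants, with adjusted p = 0.027, and 1.01 ± 0.16 in Dlx5/6::Cre mutants, with adjusted p = 0.00906. When each embryo was left out in turn, the Dlx5/6::Cre call was lost only without Control 1 (adjusted p = 0.0503). The Islet1Cre call was lost without any single control or any single Islet1Cre mutant, with adjusted p up to 0.158 and log2 fold changes of 0.81 to 0.99.

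Grm5, the postsynaptic mGluR5 that couples to phospholipase C, was the most abundant metabotropic receptor, with a level of 17.8 ± 4.06 in controls, 27.2 ± 1.1 in Islet1Cre mutants and 27.1 ± 5.4 in Dlx5/6::Cre mutants (SD, n = 3). Its normalized counts were 3954, 6233 and 6327 in controls, 8542, 7923 and 8625 in Islet1Cre mutants, and 6438, 9266 and 9654 in Dlx5/6::Cre mutants. The groups did not overlap, but Control 1 lay far below the other controls. The log2 fold changes of 0.60 ± 0.18 (adjusted p = 0.256) and 0.62 ± 0.18 (adjusted p = 0.127) did not pass, and without Control 1 they were 0.41 and 0.43. DESeq2's Wald test put Grm5 past the threshold in both mutants (adjusted p = 0.0485 and 0.0215).

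Grm4, a presynaptic receptor of the same class as Grm7, had 1104, 1249.5 and 1312 normalized counts in controls, 1534, 1868 and 1494 in Islet1Cre mutants, and 1601, 1358 and 1681 in Dlx5/6::Cre mutants. Every mutant was above every control, with log2 fold changes of 0.42 ± 0.11 (adjusted p = 0.176) and 0.34 ± 0.11 (adjusted p = 0.18). The presynaptic receptor Grm8 was singled out after its values were seen, because it differed most between the mutants. It had 39.8, 49.8 and 52.9 normalized counts in controls, 50.3, 38.3 and 41.2 in Islet1Cre mutants, and 77.7, 103 and 70.1 in Dlx5/6::Cre mutants. Only the Dlx5/6::Cre mutants lay apart from the controls, at a log2 fold change of 0.81 ± 0.24 (adjusted p = 0.121). Grm2 and Grm3, receptors that lower transmitter release and, for Grm3, also act in glia, overlapped between groups in both comparisons (log2 fold changes -0.19 to 0.14).

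Grik4 encodes a high-affinity kainate subunit that forms channels only together with Grik1, Grik2 or Grik3. It spans chr9:42518135-42944493 on the - strand. Its normalized counts were 678, 719 and 768 in controls, 1185, 1148 and 1086 in Islet1Cre mutants, and 861, 1204 and 1159 in Dlx5/6::Cre mutants. All mutants were above all controls, and Dlx5/6::Cre mutant 1 was the nearest to them. It rose by a log2 fold change of 0.66 ± 0.12 in Islet1Cre mutants (adjusted p = 0.0358) and 0.58 ± 0.12 in Dlx5/6::Cre mutants (adjusted p = 0.0351). The log2 fold change stayed between 0.62 and 0.71 and between 0.49 and 0.71 when each embryo was left out, but the call did not hold in most of these fits. In Islet1Cre mutants it held only without Dlx5/6::Cre mutant 1 or 2, and otherwise adjusted p reached 0.169. In Dlx5/6::Cre mutants it held only without Dlx5/6::Cre mutant 1 (adjusted p = 0.0014), and otherwise reached 0.142.

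Among the subunits that can form kainate channels alone, Grik1 had higher and Grik2 lower means in the mutants, without passing the edgeR test, whereas DESeq2's Wald test called Grik1 in Islet1Cre mutants (adjusted p = 0.0429) and Grik2 in Dlx5/6::Cre mutants. Grik1 had 749.8, 739.9 and 491 normalized counts in controls, 902, 929 and 1033 in Islet1Cre mutants, and 812, 873 and 915 in Dlx5/6::Cre mutants. Its groups did not overlap, with log2 fold changes of 0.53 ± 0.15 (adjusted p = 0.2) and 0.39 ± 0.15 (adjusted p = 0.236). Grik2 ranged from 3717 to 5832 in controls, 3023 to 3726 in Islet1Cre mutants, which overlapped the controls, and 2370.4 to 3184 in Dlx5/6::Cre mutants, where the log2 fold change was -0.67 ± 0.17 (adjusted p = 0.0697). Grik3 ranged from 4219.6 to 4826, 4279 to 5647 and 4879.8 to 6889.8. Grik5, the most abundant kainate subunit and a partner subunit like Grik4, had 10433, 8723 and 8623 normalized counts in controls, 8713, 9595 and 9334 in Islet1Cre mutants, and 8391, 8516 and 9006 in Dlx5/6::Cre mutants. Its 95% intervals of the log2 fold change were -0.21 to 0.19 and -0.30 to 0.09.

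Grin3a encodes GluN3A, an NMDA subunit of immature neurons that lowers calcium permeability. It spans chr4:49661611-49845744 on the - strand. Its normalized counts were 382, 603 and 546 in controls, 692, 766 and 780.3 in Islet1Cre mutants, and 801, 1125 and 835 in Dlx5/6::Cre mutants. No mutant overlapped a control. The log2 fold change was 0.55 ± 0.18 in Islet1Cre mutants, which did not pass (adjusted p = 0.295), and 0.85 ± 0.18 in Dlx5/6::Cre mutants, which did (adjusted p = 0.0319). The latter call held in 2 of 9 fits that left out 1 embryo, those without Control 2 or Dlx5/6::Cre mutant 1. In the other 7 the adjusted p lay between 0.0548 and 0.0997, and without Control 1 the log2 fold change was 0.68.

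Grin2c encodes GluN2C, an NMDA subunit best known from cerebellar granule cells. It spans chr11:115249169-115267243 on the - strand, 70.2 Mb from Ebf1 on the same chromosome. Its normalized counts were 301, 173 and 184 in controls, 114, 150.4 and 168 in Islet1Cre mutants, and 69.1, 106 and 106 in Dlx5/6::Cre mutants. Each mutant lay below each control, and Control 1 was the highest. It fell in Dlx5/6::Cre mutants by a log2 fold change of -1.23 ± 0.27 (adjusted p = 0.0406). In Islet1Cre mutants the value was -0.61 ± 0.27 (adjusted p = 0.597). The call held in 1 of 9 fits that left out an embryo, without Dlx5/6::Cre mutant 1 (adjusted p = 0.0498), and without Control 1 the log2 fold changes were -0.93 (adjusted p = 0.147) and -0.31.

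The main NMDA subunits showed no call. Grin1, the obligatory subunit, had 3096, 3162 and 3098 normalized counts in controls, 3202, 3435 and 3474 in Islet1Cre mutants, and 2249.5, 3448 and 3282 in Dlx5/6::Cre mutants, of which mutant 1 was the lowest. Its intervals of the log2 fold change were -0.18 to 0.40 and -0.35 to 0.23, and 13.5% of its exon length overlaps the antisense gene Grin1os, whose reads could be mixed in if the counting ignored strand. Grin2b, the GluN2 subunit of embryonic forebrain, ranged from 5235 to 5441, 5569.7 to 6069 and 4379 to 5759. Grin2a, the subunit that gains weight after birth, had 17.3 to 60.4 normalized counts in all libraries, and 11.1% of the 75-base windows of its transcripts also occur in other genes. Grin2d ranged from 211 to 472 over all libraries.

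Within the GluN2 subunits, Grin2b made up 69.9 ± 4.83% of the summed level in controls, 74.2 ± 5.12% in Islet1Cre mutants and 72.9 ± 6.70% in Dlx5/6::Cre mutants (SD, n = 3). The differences had p = 0.5 in both mutants (exact two-sided permutation test, whose smallest p is 0.1, and 0.667 after Benjamini-Hochberg adjustment over 4 comparisons). Grin2c made up 13.99 ± 3.72%, 9.02 ± 1.01% and 6.84 ± 0.98%, and Grin2a less than 1% in each group.

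**Figure D3:**
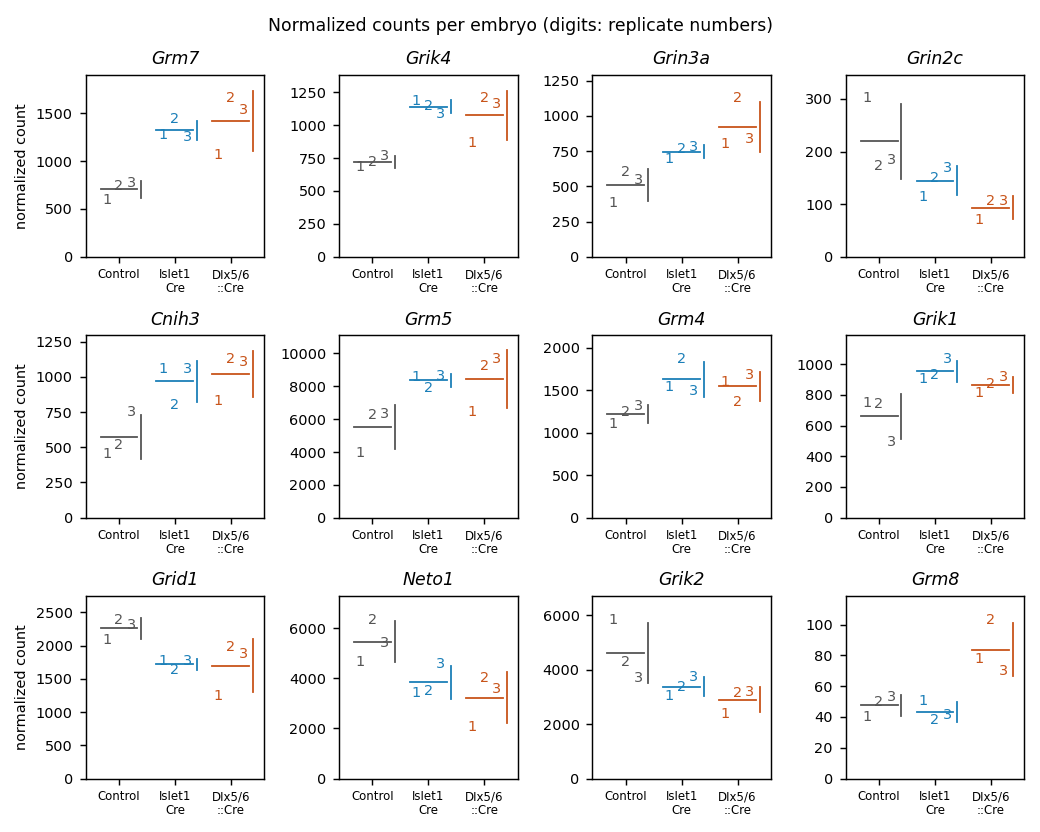
Normalized counts of 12 genes in each embryo, from 0 upward, with the replicate number as the symbol, the group mean as a horizontal line and 1 SD to either side as a vertical line. Grm7, Grik4, Grin3a, Cnih3, Grm5, Grm4 and Grik1 have all mutants above all controls, Grin2c, Grid1 and Neto1 have all below, and Grm8 is apart only in Dlx5/6::Cre mutants. Control 1 is the lowest control for Grm7, Grm5 and Grin3a and the highest for Grin2c.

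None of the 4 AMPA receptor subunits passed in either mutant, in edgeR or by DESeq2. An unadjusted p under 0.05 in edgeR was found for 0 and 1 of them, beside 7.93% and 15.5% of all genes. Gria1, the subunit that enters synapses during potentiation, had 6362, 6322 and 6797 normalized counts in controls, 7221, 7767 and 7014 in Islet1Cre mutants, and 6788, 8406 and 8519 in Dlx5/6::Cre mutants. It was higher in all Islet1Cre mutants than in any control, and Dlx5/6::Cre mutant 1 fell within the control range. The log2 fold changes were 0.17 ± 0.09 (adjusted p = 0.771) and 0.28 ± 0.09 (adjusted p = 0.171), and without Dlx5/6::Cre mutant 1 the latter passed (0.38, adjusted p = 0.0213). Gria1 lies 12.0 Mb from Ebf1 on chromosome 11, and linkage to the Ebf1 alleles was not tested.

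Gria2, the subunit whose edited form blocks calcium entry, ranged from 10682 to 11250.1 normalized counts in controls, 10397 to 13619.8 in Islet1Cre mutants and 9883 to 12545 in Dlx5/6::Cre mutants. Gria4 and Gria3 were less abundant, with log2 fold changes of -0.27 to -0.02 over both comparisons. Gria2 made up 33.6 ± 1.08% of the summed AMPA subunit level in controls, 34.5 ± 2.97% in Islet1Cre mutants and 31.3 ± 1.07% in Dlx5/6::Cre mutants (SD, n = 3). Its share was lower in each Dlx5/6::Cre mutant (31.9, 32.0 and 30.1%) than in each control (33.8, 34.6 and 32.5%). The difference of -2.28 percentage points had p = 0.1, the smallest the exact permutation test allows with 3 against 3, and 0.4 after adjustment over the 4 comparisons of shares. In Islet1Cre mutants it was 0.90 points (p = 0.7 by the exact permutation test).

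The delta receptor Grid1, a synaptic organiser that binds cerebellins, had 2084, 2384 and 2315 normalized counts in controls, 1761, 1628 and 1768 in Islet1Cre mutants, and 1245, 1976 and 1869 in Dlx5/6::Cre mutants. All mutants lay below all controls. The log2 fold changes of -0.40 ± 0.14 (adjusted p = 0.399) and -0.41 ± 0.14 (adjusted p = 0.195) did not pass, and Grid1 passed in Islet1Cre mutants without Dlx5/6::Cre mutant 1 (adjusted p = 0.0213).

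Among the 8 tested auxiliary subunits none passed in edgeR, whereas DESeq2 called Cnih3 in both mutants and Neto1 in Dlx5/6::Cre mutants. An unadjusted p under 0.05 in edgeR was found for 5 and 4 of the 8, beside 7.93% and 15.5% of all genes. Cnih3, a cornichon that slows AMPA receptor closing, had 451, 516 and 748 normalized counts in controls, 1056, 803 and 1054 in Islet1Cre mutants, and 829, 1126 and 1105 in Dlx5/6::Cre mutants. The groups did not overlap, and the log2 fold changes were 0.76 ± 0.19 (adjusted p = 0.133) and 0.84 ± 0.19 (adjusted p = 0.0521). DESeq2 put both past the threshold (adjusted p = 0.00855 and 0.00121). Its paralogue Cnih2, the most abundant gene of the set, had 13279, 14044 and 12918 in controls, 14456, 11794 and 12763 in Islet1Cre mutants, and 10542, 12683 and 13697 in Dlx5/6::Cre mutants. Its intervals of the log2 fold change were -0.28 to 0.19 and -0.36 to 0.11. The 2 cornichons thus had log2 fold changes of unlike size in both mutants.

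Neto1, which slows the gating of kainate receptors and also binds NMDA receptors, had 4654, 6318 and 5405 normalized counts in controls, 3413, 3498 and 4582 in Islet1Cre mutants, and 2065, 4000.2 and 3584 in Dlx5/6::Cre mutants. Every mutant was below every control. The log2 fold changes were -0.51 ± 0.22 (adjusted p = 0.556) and -0.76 ± 0.22 (adjusted p = 0.109), and DESeq2's Wald test passed in Dlx5/6::Cre mutants (adjusted p = 0.00968). Neto2 went the other way without passing, at 2473 to 2922 in controls, 3168 to 3356 in Islet1Cre mutants and 2709 to 3448 in Dlx5/6::Cre mutants.

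Of the TARPs, Cacng4 was the most abundant, with 11439, 12700.5 and 12985 normalized counts in controls, 11554, 10656 and 10991 in Islet1Cre mutants, and 10280.3, 10633 and 11037 in Dlx5/6::Cre mutants. The Dlx5/6::Cre mutants lay below the controls by a log2 fold change of -0.22 ± 0.08 (adjusted p = 0.195). Cacng2, which encodes stargazin, had 778 to 908 in controls, 906 to 1094 in Islet1Cre mutants and 966 to 1049 in Dlx5/6::Cre mutants. Cacng3 was above the controls in all Islet1Cre mutants (599.6 to 656 against 327 to 480.2), with a log2 fold change of 0.66 ± 0.25 (adjusted p = 0.438), but not in all Dlx5/6::Cre mutants (294 to 622). Cacng5 ranged from 137 to 270.3 over all libraries.

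The direct test between the mutants called none of the 30 genes in edgeR, where 0% of all genes passed, and none of the 30 by DESeq2, which called 18 other genes. With no filter on low counts edgeR called 13 genes, none of them among the 30. Unadjusted, 3 of the 30 were under 0.05, where 5.16% of all genes were. Grm8 was higher in Dlx5/6::Cre than in Islet1Cre mutants by a log2 fold change of 0.96 ± 0.24, with adjusted p = 0.868. Its Dlx5/6::Cre mutants were all above the Islet1Cre mutants, as in 4.96% of all genes. Grin2c had a log2 fold change of -0.62 ± 0.27, with all Dlx5/6::Cre mutants below, as in 5.39% of all genes, and Grin2b had -0.25 ± 0.10. No gene of the set was thus shown to differ between the mutants, including Grin3a and Grin2c, which passed in the Dlx5/6::Cre comparison and not in the Islet1Cre comparison.

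Embryo codes in the labels begin with IE for all Islet1Cre mutants and Controls 1 and 2, and with D for all Dlx5/6::Cre mutants and Control 3. With this prefix as a covariate no gene of the set passed in either comparison, and Grm7 had log2 fold changes of 0.98 (adjusted p = 0.0638) and 0.88 (adjusted p = 0.268). Among IE embryos, 3 against 2, Grm7 (0.99, adjusted p = 0.00836), Grik4 (0.71, adjusted p = 0.0153) and Cnih3 (1.00, adjusted p = 0.0153) passed. Among D embryos there was 1 control, which was assumed to vary like the mutants, and none passed. There Grm7 was at 0.87, Grik4 at 0.48, Grin3a at 0.75 and Grin2c at -0.97. The sign within a prefix was that of the full comparison for 30 of 30 genes in IE embryos and 28 of 30 in D embryos. These fits share all mutants and part of the controls with the full comparison, so agreement in sign was partly fixed in advance.

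Without the 3 libraries that stood apart (Control 3, Islet1Cre mutant 3 and Dlx5/6::Cre mutant 1), Grik4, Grm7 and Cnih3 passed in Islet1Cre mutants. Grin3a, Grik2, Grik4, Grm5, Grm7 and Cnih3 passed in Dlx5/6::Cre mutants, where Grm7 had a log2 fold change of 1.25 (adjusted p = 0.00109) and Grin2c no longer passed (-1.17, adjusted p = 0.0689). Marker sums also differed between the groups in Dlx5/6::Cre mutants. All 8 cortical excitatory neuron markers had positive log2 fold changes there, with none past the threshold in edgeR (smallest adjusted p = 0.0819). An unadjusted p under 0.05 in edgeR was found for 5 of the 8, beside 15.5% of all genes. Sums of these cortical markers were 27.2 to 63.9 there, against 10.8 to 26.6 in controls and 10.9 to 19.9 in Islet1Cre mutants. Of 7 dSPN markers 2 fell in Dlx5/6::Cre mutants, Chrm4 and Slc35d3, and Slc35d3 in Islet1Cre mutants. In Dlx5/6::Cre mutants 6 of the 7 had negative log2 fold changes, and all 7 had an unadjusted p under 0.05 in edgeR. In Islet1Cre mutants 5 were negative, and 3 of the 7 had such a p. Such a p was found for 15.5% and 7.93% of all genes, respectively. The dSPN marker Drd1, named like Foxp1 after its values were seen, had log2 fold changes of 0.67 in Islet1Cre mutants (adjusted p = 0.346) and 0.53 in Dlx5/6::Cre mutants (adjusted p = 0.293). Of 7 SPN markers, Foxp1 alone passed, and fell in Dlx5/6::Cre mutants (log2 fold change -0.53, adjusted p = 0.0305). The 7 went both ways, with 3 positive and 4 negative log2 fold changes in Dlx5/6::Cre mutants (-0.53 to 0.41). In Islet1Cre mutants 4 were positive and 3 negative (-0.33 to 0.43). The study reports no significant change of genes of general SPN identity in either mutant. Summed levels of 5 microglia markers were 29.6 to 35.3 in Dlx5/6::Cre mutants and 24.8 to 27.3 in controls. None was past the threshold in edgeR (smallest adjusted p = 0.0858). An unadjusted p under 0.05 was found for 2 of the 5, beside 15.5% of all genes. The part of these markers in the values of the receptor genes was not tested.

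**Figure D4:**
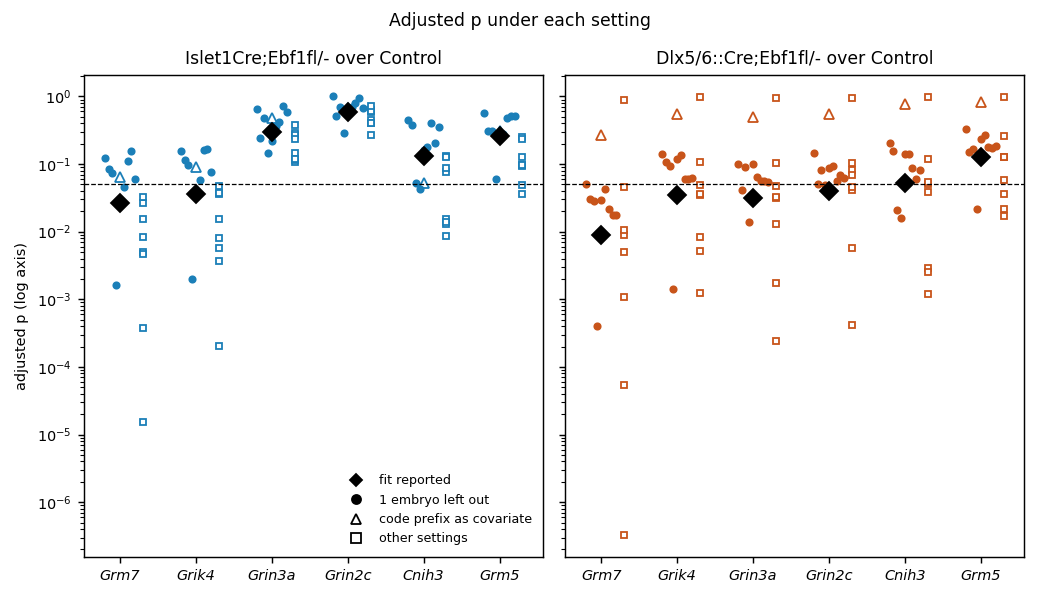
Adjusted p (log axis) of 6 genes under each setting, for Islet1Cre mutants (left) and Dlx5/6::Cre mutants (right), with the threshold of 0.05 as a dashed line. Diamonds are the reported fit, dots leave out 1 embryo, triangles are the fit with a term for the code prefix, and squares are the other settings. Grm7 in Dlx5/6::Cre mutants lies above the line without Control 1 (adjusted p = 0.0503), with the prefix as covariate (adjusted p = 0.268) and among D embryos (adjusted p = 0.896), and under it in the other fits.

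A further 38 genes of glutamate synapses were all tested. In Islet1Cre mutants none passed in edgeR, where 0.971% of all genes did, with 5 at an unadjusted p under 0.05 (7.93% of all genes) and 3 called by DESeq2. In Dlx5/6::Cre mutants 2 rose, Shisa9 and Slc1a2, where 1.05% of all genes did, and none fell, with 10 of the 38 at an unadjusted p under 0.05 (15.5% of all genes). Shisa9, an AMPA receptor auxiliary subunit also called CKAMP44, had 346, 560.2 and 461 normalized counts in controls, 764, 999.6 and 736 in Islet1Cre mutants, and 679, 845 and 854 in Dlx5/6::Cre mutants. All mutants were above all controls, with log2 fold changes of 0.87 ± 0.18 (adjusted p = 0.0577) and 0.80 ± 0.18 (adjusted p = 0.047). Slc1a2, the astrocytic glutamate transporter GLT-1, had 816, 829 and 774 in controls, 746, 789.6 and 895 in Islet1Cre mutants, and 1169, 1206 and 1008 in Dlx5/6::Cre mutants. Its log2 fold changes were 0.00 ± 0.10 and 0.48 ± 0.10 (adjusted p = 0.0356). Summed levels of radial glia and astrocyte markers, 1 of which (Slc1a3) is also among these 38 genes, were 352 to 409 in controls and 351 to 585 in Dlx5/6::Cre mutants, and their part in this value was not tested. Fabp7, at a mean level of 330 in controls, made up most of these radial glia and astrocyte sums. The median of the 38 genes was -0.013 and -0.027.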

How the data were processed

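Striatal RNA of 9 embryos was sequenced from poly(A) libraries. Per the labels and the methods, the authors aligned reads to mm10 with STAR 2.4.0k, removed reads with several positions and counted genes of Ensembl with HTSeq 0.5.3, and deposited whole-number counts per gene and sample. The strand setting of the counting is not given in the sources used here. The genome of the files, GRCm38, is that of the GENCODE M21 annotation used for names and lengths.

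All 9 samples were fitted with edgeR 4.0.16 (quasi-likelihood test, TMM scaling, filterByExpr, 3 groups, R 4.3.3) on all genes, with Benjamini-Hochberg adjustment and a threshold of 0.05. Printed normalized counts used size factors of DESeq2 1.42.0, whose Wald test was an alternative. The script was tested on simulated data. Other alternatives were median-of-ratios factors, no filter, a stricter filter (100 counts in 3 samples), 6 samples, the replicate block, the embryo code prefix and each embryo left out. The fits within a prefix and without 3 libraries were chosen after seeing the data. Named were genes past the threshold, those with all 6 mutants outside the controls, and the most abundant of each role. Members and lists were chosen with earlier results of these data known. Promoters came from RefSeq (GRCm38.p6), with 23 of 34 genes matched. Values of 1 of the 38 synaptic genes are not reported here.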

Additional observations from a re-analysis of the deposited data

How the results depend on the processing

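The calls rest on few embryos. In Islet1Cre mutants, 2 genes of the set passed in the reported fit, 5 by DESeq2, 4 with no filter on low counts and 0 with the embryo code prefix as covariate, and 0 to 5 when 1 embryo was left out (0 without any control or any Islet1Cre mutant, 1 without Dlx5/6::Cre mutant 3, 5 without Dlx5/6::Cre mutant 1). In Dlx5/6::Cre mutants, 4 passed, 8 by DESeq2, 8 with no filter, 1 with only the 6 samples compared, 0 with the prefix as covariate and 0 among D embryos, and 0 to 8 when 1 embryo was left out (0 without Control 1, 2 without Control 2 or 3, 8 without Dlx5/6::Cre mutant 1, and 1 without any other embryo). Of the 38 synaptic genes, 0 passed in Islet1Cre mutants, 3 by DESeq2, 1 with no filter, 1 with only 6 samples, 1 with the replicate block and 0 to 2 when 1 embryo was left out (2 without Dlx5/6::Cre mutant 1). In Dlx5/6::Cre mutants 2 passed, 4 by DESeq2, 0 with 6 samples, with the prefix as covariate, among D embryos or without the 3 libraries that stood apart, and 0 to 4 when 1 embryo was left out (4 without Dlx5/6::Cre mutant 1, 0 or 1 without any other embryo). The direct comparison of the mutants called 0 genes of the set in every setting run. Over all genes the number of calls in Islet1Cre mutants shifted as well. It was 159 in the reported fit and 61 with the prefix as covariate, of 16368 genes. DESeq2 called 394 and the fit with no filter 311, of 26563 genes. With 1 embryo left out, 15 to 397 of all genes passed in that comparison. The cause of these shifts was not tested.

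Replicate numbers did not pair the samples: deviations of samples with the same number correlated at -0.023 on average (range -0.228 to 0.178), beside 0.012 for different numbers. With the replicate block, 2 genes of the set passed in Islet1Cre mutants and 5 in Dlx5/6::Cre mutants, where Neto1 and Cnih3 (adjusted p = 0.0381) joined and Grin2c (adjusted p = 0.0804) left.

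Signs changed for small log2 fold changes only. With each embryo left out, Grin1 in Dlx5/6::Cre mutants ranged from -0.174 to 0.108 (0.101 without the 3 libraries), Grik5 in Islet1Cre mutants from -0.053 to 0.086 (0.031 without Islet1Cre mutant 1) and Cnih2 in Islet1Cre mutants from -0.128 to 0.019. Grik5 in Dlx5/6::Cre mutants became 0.003 with the prefix as covariate. Between the mutants, Grik4 ranged from -0.172 to 0.052 (0.018 without the 3 libraries) and Grm7 from -0.026 to 0.268 (-0.103 with the prefix as covariate). The Gria2 share in Islet1Cre mutants, 0.90 points above controls, ranged from -0.28 (without Islet1Cre mutant 3) to 2.57 points. Another scaling moved the median of all genes by less than 0.1 (log2).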
